A study of Homo sapiens with 4 samples.

Results

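The kallikrein cluster of human chromosome 19 was examined for open chromatin in LNCaP cells given GSK2879552 or vehicle. Its members were the listed open regions whose summit lay in chr19:51310000-51595000 (hg19), a stretch of 285 kb around KLK3 and KLK2. There were 29 members among the 161535 regions of the GSK2879552 list and 33 among the 191905 regions of the vehicle list, on chromosomes 1 to 22, X and Y. Members were taken by position, without a cut on tags or ratio, from regions already called in these data. The choice was made with earlier results of these data known.

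LNCaP is an androgen-sensitive line of human prostate cancer cells. GSK2879552 inhibits LSD1 (KDM1A), an enzyme that removes methyl groups from histone H3. ATAC-seq was used, in which a transposase cuts and tags accessible DNA. One group was treated with GSK2879552 and the other with vehicle, and the protocol on every sample reads 50 µM for 4 hours in RPMI1640 with 5% CSS, after upkeep in 10% FBS. Each condition had 1 library, sequenced in 2 lanes called technical replicates, and 1 deposited list of peaks. No replicate error, and so no test between conditions, was available. The intervals below are 95% intervals that cover counting error only. All cells were of 1 cell line, and nothing in the labels says how many cultures were used.

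The kallikreins are secreted serine proteases encoded side by side. KLK3 encodes prostate-specific antigen, which liquefies semen and is measured in blood as a marker of prostate cancer. KLK2 encodes a close relative that can cleave the precursor of prostate-specific antigen. KLK4 and KLK15 encode further proteases made in prostate. In luminal prostate cells the androgen receptor activates KLK3 and KLK2 through elements near their starts and through enhancers a few kb upstream, with the pioneer factor FOXA1. In the RefSeq gene order, KLK1 and KLK15 are followed by KLK3, KLK2, the pseudogene KLKP1 and KLK4, and the 10 genes KLK5 to KLK14 lie beyond KLK4. Several of these last genes, such as KLK5 and KLK7, are known from the shedding of skin cells.

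The starts of KLK3 and KLK2 are shown first, because both carried a listed open region and because the windows share an unbroken run of identical letters. Each window below is the RefSeq promoter of GRCh38.p14, from 250 bases before the start to 50 after it, on the plus strand (KLK3 chr19:50854665-50854964, KLK2 chr19:50873189-50873488). Capitals mark matches to GNACA, 4 bases and GTNC, a loose form of the androgen receptor element, searched on both strands.
KLK3: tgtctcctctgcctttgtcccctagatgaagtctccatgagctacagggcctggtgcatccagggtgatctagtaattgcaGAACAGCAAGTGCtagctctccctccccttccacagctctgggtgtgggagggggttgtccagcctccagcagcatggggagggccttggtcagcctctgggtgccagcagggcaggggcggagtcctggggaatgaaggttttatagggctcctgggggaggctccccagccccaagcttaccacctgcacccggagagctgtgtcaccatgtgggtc
KLK2: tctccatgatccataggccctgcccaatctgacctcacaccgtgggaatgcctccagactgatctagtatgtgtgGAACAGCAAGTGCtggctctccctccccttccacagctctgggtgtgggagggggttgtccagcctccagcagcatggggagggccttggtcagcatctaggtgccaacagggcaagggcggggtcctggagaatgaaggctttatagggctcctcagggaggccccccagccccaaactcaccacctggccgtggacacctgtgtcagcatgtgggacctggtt
Both windows held the same 13 letters, GAACAGCAAGTGC, at positions -169 to -157 before the KLK3 start and -175 to -163 before the KLK2 start. Of 35116 promoter windows of this length in the table, 2.19% held a match. Among 22 windows of 13 kallikrein genes the match was found at KLK2 and KLK3. The stricter form GNACA, 3 bases and TGTNC, in 0.390% of all windows, was found in no kallikrein window, and likewise TGTTTAC, a core of the forkhead motif that FOXA1 binds (3.42% of all windows). The single arm AGAACA overlapped the loose match at KLK3 and was in 14.8% of all windows. A match is a description of the letters, not of binding. The KLK3 and KLK2 windows were 79.3% identical over 309 aligned columns, with an unbroken identical run of 80 bases. The authors' handling of reads that match both genes equally, not given in the sources used here, could move tags between the 2 starts, which was not tested.

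At the KLK3 start a narrow open region was listed under both conditions. It carried 29 tags at its summit with GSK2879552 (exact Poisson interval 19.4 to 41.6) and 38 tags with vehicle (26.9 to 52.2). Tags were recovered from the authors' fold and p-value of each region, as whole numbers. The summit was at position -95 with GSK2879552 and -56 with vehicle, counted from the KLK3 start at 51358171. The region ran from -141 to 2 in the GSK2879552 list and from -144 to 9 in the vehicle list, so the androgen receptor element match shown above lay just outside it in both. The GSK2879552 library was deeper, with a genome-wide background of 2.72 tags per position against 2.31 with vehicle. Scaled for that depth, the ratio of GSK2879552 to vehicle at the KLK3 start was 0.649 (exact binomial interval 0.386 to 1.08). The interval includes 1, so at this depth a change at the KLK3 start was not detectable from this region alone.

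The KLK2 start carried more tags than the KLK3 start under both conditions. Its region had 59 tags with GSK2879552 and 75 tags with vehicle, and lay upstream of the start, from -368 to -90 with GSK2879552 and from -351 to -30 with vehicle. It therefore spanned the element match of the KLK2 window, whose RefSeq start lies within 10 bases of the start used here (51376689). The scaled ratio was 0.669 (0.467 to 0.954), an interval below 1, where all paired regions of the genome together gave 0.683. Among paired regions of the genome with at least 40 tags over both lists, it stood at percentile 51.5. The ratio at the KLK3 start stood at percentile 44.7, so both starts lay near the middle of the genome. Exact intervals of the tags at the KLK2 and KLK3 starts did not overlap, being 44.9 to 76.1 against 19.4 to 41.6 with GSK2879552 and 59.0 to 94.0 against 26.9 to 52.2 with vehicle. The identical run of 80 bases lay at -154 to -75 at KLK3 and -160 to -81 at KLK2. It covered the KLK3 summit with GSK2879552, at -95, but not that with vehicle, at -56, nor the KLK2 summits, at -210 and -217. How reads that match both genes bear on this difference was not tested.

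Upstream of both genes, in the span of 3 to 6 kb where their androgen-responsive enhancers are known, an open region was listed under both conditions. The KLK3 upstream region was chr19:51354002-51354361 with GSK2879552 and chr19:51353841-51354327 with vehicle. It had 23 tags with GSK2879552 and 31 tags with vehicle, a scaled ratio of 0.631 (0.351 to 1.12). Its summit lay 3.89 kb upstream of the KLK3 start with GSK2879552 and 4.03 kb upstream with vehicle, a shift of 144 bases. That was the longest shift among the 20 paired regions of the cluster, whose median was 21.5 bases, against 17.0 over all paired regions. The vehicle list held a further region 3.09 kb upstream of KLK3, with 21 tags, and the nearest GSK2879552 region lay 656 bases away.

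The KLK2 upstream region showed one of the lowest tag ratios of the cluster. It had 26 tags with GSK2879552 and 44 tags with vehicle, a scaled ratio of 0.503 (0.297 to 0.835). The region was 196 bases wide with GSK2879552, at chr19:51372803-51372998, and 456 bases wide with vehicle, at chr19:51372593-51373048. Its summit, 3.78 kb upstream of KLK2 with GSK2879552 and 3.75 kb with vehicle, moved by 26 bases. The log2 ratio of -0.99 stood at percentile 7.86 of the 80137 paired regions of the genome that reach 40 tags summed over the lists. That of the KLK3 upstream region, -0.66, stood at percentile 38.6. The intervals of the KLK2 and KLK3 upstream ratios overlapped, and these counts do not resolve whether the ratios differ.

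Downstream of the KLK3 and KLK2 starts lay further open regions, some of them with more tags than the KLK3 start had. The region 4.17 kb downstream of the KLK3 start, chr19:51361991-51362572 in the vehicle list, had 59 tags with GSK2879552 and 70 tags with vehicle. Its scaled ratio was 0.717 (0.498 to 1.03). Beside it, 3.21 kb downstream of the start, 28 tags with GSK2879552 stood against 27 tags with vehicle, the highest ratio near KLK3 at 0.882 (0.501 to 1.56). The region 16.4 kb downstream of the KLK2 start had 42 tags with GSK2879552 and 52 tags with vehicle, a ratio of 0.687 (0.446 to 1.05).

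KLK4 and KLK15 had no listed summit within 1 kb of the starts used here. The nearest summit to KLK4 lay downstream in the direction of transcription, 1.23 kb from the start with GSK2879552 and 1.25 kb with vehicle, in the region with most tags of the cluster. At chr19:51412454-51413100 it had 69 tags with GSK2879552, and at chr19:51412308-51413126 it had 95 tags with vehicle. The scaled ratio was 0.618 (0.446 to 0.851). RefSeq lists a second KLK4 start 657 bases farther upstream, which is farther still from this region. Upstream of KLK4, 11.7 kb from its start, 54 tags with GSK2879552 and 66 tags with vehicle gave 0.696 (0.477 to 1.01). The nearest summit to KLK15 lay 4.10 kb upstream of its start with GSK2879552 and 4.63 kb upstream with vehicle, between KLK15 and KLK3. RefSeq lists a second KLK15 start 2051 bases farther upstream, which is nearer to both summits. At this place the vehicle list held 1 region of 802 bases with 73 tags, where the GSK2879552 list held 2 regions with 60 and 37 tags.

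**Figure D1:**
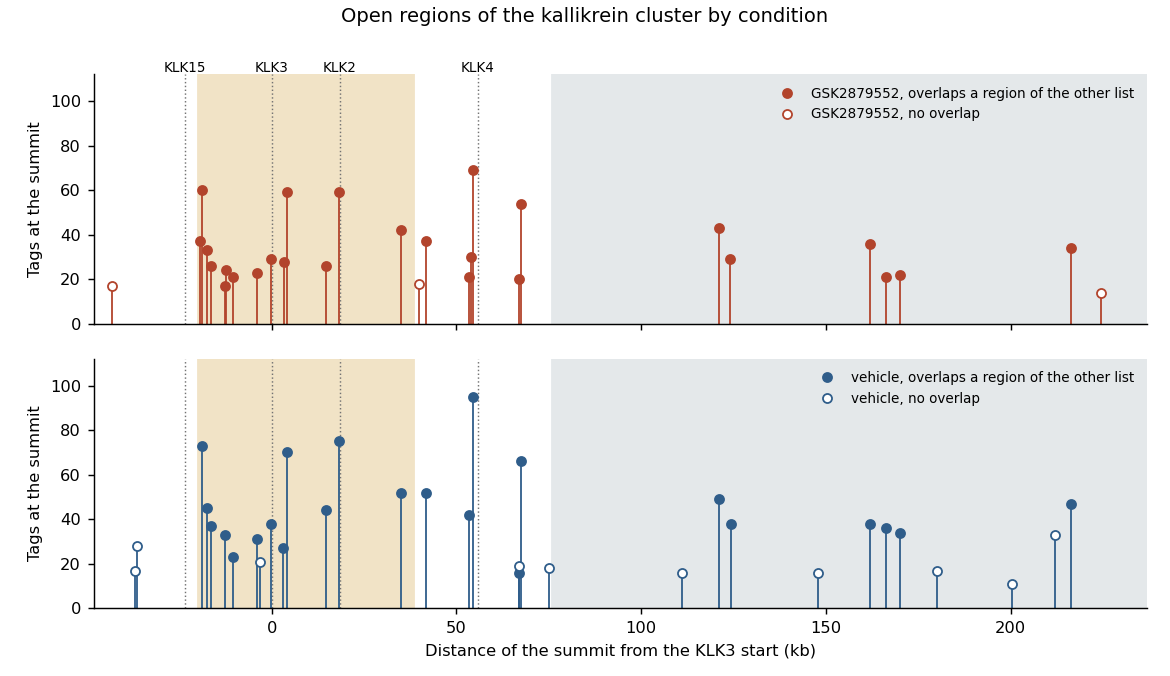
Tags at the summit of each listed open region (vertical axis) against its distance from the KLK3 start in kb (horizontal axis), for GSK2879552 (above) and vehicle (below). Filled points overlap a region of the other list and open points do not. Dotted lines mark the starts of KLK15, KLK3, KLK2 and KLK4. Ochre marks the span within 20 kb of KLK3 or KLK2 and grey the span over 20 kb beyond KLK4. Regions crowd between KLK15 and KLK4, and 5 of the 10 open vehicle points lie in the grey span.

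Nearly all open regions around KLK3 and KLK2 overlapped a region of the other list by at least 1 bp, and fewer did under a stricter overlap. Over the whole cluster, 3 of 29 GSK2879552 regions (10.3%) and 10 of 33 vehicle regions (30.3%) had no partner in the other list. The background was 23.5% of all GSK2879552 regions and 38.5% of all vehicle regions. On chromosome 19 alone it was 18.1% of GSK2879552 regions and 30.7% of vehicle regions, so the vehicle share of the cluster was near that of its chromosome. Within 20 kb of either start, 14 of 14 GSK2879552 regions and 12 of 13 vehicle regions had such a partner. Over 20 kb beyond the KLK4 start, among the distal kallikreins, 6 of 7 GSK2879552 regions and 6 of 11 vehicle regions had one. With a reciprocal overlap of 50%, 57.1% of GSK2879552 regions and 61.5% of vehicle regions around KLK3 and KLK2 had one. In the distal part 71.4% of GSK2879552 regions and 45.5% of vehicle regions did. By 1 bp of overlap, 92.3% of the vehicle regions around KLK3 and KLK2 were shared (exact Clopper-Pearson interval 64.0 to 99.8). Of the distal ones 54.5% were shared (23.4 to 83.3). These intervals overlap, but they treat neighbouring regions of 1 library per condition as independent, and overlap is not a test. Whether the stretches differ was not tested and stays unresolved.

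Regions without a partner were mostly weak ones. In the vehicle list they had 11 to 33 tags with a median of 17.5, against a median of 42.0 tags at the shared regions. Of the 7 vehicle regions of the cluster with 15 to 19 tags, 1 was shared, where 38.0% of such regions were shared over the genome. Of the 14 with 30 to 49 tags, 13 were shared, against 93.4% over the genome. The exception was chr19:51570177-51570363, in the distal part 156 kb beyond KLK4, with 33 tags and the nearest GSK2879552 region 3976 bases away. Ranked by the authors' p-value, the next vehicle regions without a partner were chr19:51321601-51321768, 13.1 kb downstream of the KLK15 start, with 28 tags, and chr19:51433137-51433325, with 18 tags, 19.2 kb upstream of KLK4. The region 3.09 kb upstream of KLK3, with 21 tags with vehicle, and a vehicle region of 19 tags 11.3 kb upstream of KLK4 had more tags than the last of these but ranked below it by p-value, since more tags lay around them. The 3 GSK2879552 regions without a partner had 14 to 18 tags. They were chr19:51314935-51315191 with 17 tags, chr19:51397887-51397988 between KLK2 and KLK4 with 18 tags, and chr19:51582724-51582840 with 14 tags. Tags of the other library at these 13 places are not given by its list.

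Open regions were denser around KLK3 and KLK2 than in the distal part under both conditions. There were 2.39 regions per 10 kb with GSK2879552 and 2.22 with vehicle within 20 kb of KLK3 or KLK2. In the distal part there were 0.435 per 10 kb with GSK2879552 and 0.683 with vehicle. The rest of the cluster had 1.22 with GSK2879552 and 1.375 with vehicle. The stretch around KLK3 and KLK2 also holds regions nearer to the KLK15 start than to either gene. Within 10 kb of the KLK3 or KLK2 start there were 6 regions with GSK2879552 and 7 with vehicle. Covered length was 3384 bases with GSK2879552 and 4822 bases with vehicle around KLK3 and KLK2, a ratio of 0.702. In the distal part it was 1229 bases with GSK2879552 and 2508 bases with vehicle, a ratio of 0.490. The same ratio was 0.652 over the cluster and 0.751 over the genome. Sums of this kind move with how many regions were listed, and the median width in the distal part was 134 bases with GSK2879552 and 160 bases with vehicle.

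Where the cluster held an open region in both lists, it carried fewer tags with GSK2879552, as did paired regions over the genome. Of the 20 regions with exactly 1 partner, 19 had a scaled ratio below 1, against 94.2% of all 110134 paired regions, and 18 had fewer tags even without scaling, against 83.3%. The sums were 711 tags with GSK2879552 and 913 tags with vehicle, a scaled ratio of 0.662 (0.600 to 0.731) where the genome gave 0.683. The median log2 ratio was -0.62, against -0.56 over all paired regions. At least 1.5-fold lower were 11 of the 20, against 45.5% of all pairs, and at least 2-fold lower was 1, against 7.1%. The interval lay below 1 at 8 of the 20, against 26.8% of all pairs. Pairs of the cluster had a median of 31 tags with GSK2879552 and 41 with vehicle, and all pairs 23 with GSK2879552 and 31 with vehicle, so intervals in the cluster are narrower. With 20 regions, these shares are not set apart from the background.

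No difference in tag ratio was detectable between the KLK3 and KLK2 surroundings and the distal kallikreins. Around KLK3 and KLK2, 346 tags with GSK2879552 and 442 tags with vehicle at 10 pairs gave 0.666 (0.577 to 0.768). In the distal part, 185 tags with GSK2879552 and 242 tags with vehicle at 6 pairs gave 0.650 (0.534 to 0.791). At the 4 pairs in the rest of the cluster the ratio was 0.669 (0.547 to 0.816). Each interval includes the others' ratios and the 0.683 of the genome, and this depth does not resolve them. The median log2 ratio was -0.60 around KLK3 and KLK2 and -0.66 in the distal part.

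**Figure D2:**
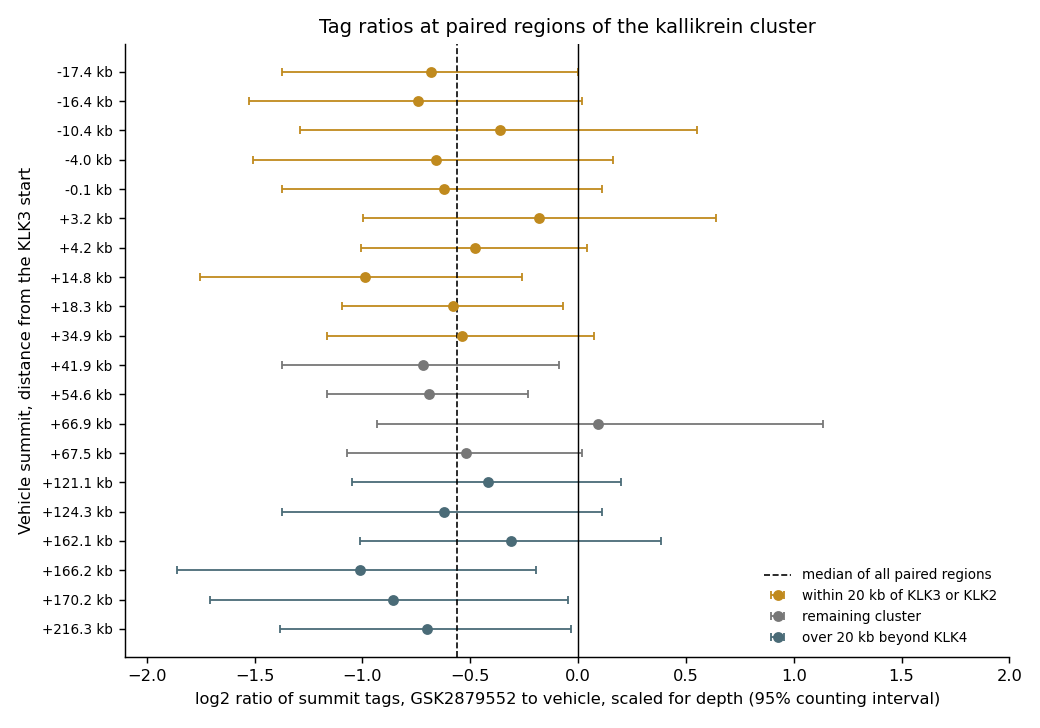
The log2 ratio of summit tags, GSK2879552 to vehicle and scaled for depth (horizontal axis), for the 20 paired regions of the cluster ordered by distance from the KLK3 start (vertical axis). Bars are exact binomial 95% intervals for counting error, the dashed line is the median of all paired regions (-0.56) and the solid line marks no difference. The interval lies below 0 in 8 of the 20 regions, and 19 points lie left of 0.

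The extremes of the cluster lay on either side of its median without leaving the range of the genome. The lowest ratio was in the distal part, at chr19:51524290-51524690, where 21 tags with GSK2879552 stood against 36 tags with vehicle, a ratio of 0.496 (0.275 to 0.873). This region stood at percentile 7.08 of pairs that reach 40 tags. It was 134 bases wide with GSK2879552 and 401 bases with vehicle. The next after it and the KLK2 upstream region was chr19:51528273-51528418, with 22 tags with GSK2879552 against 34 tags with vehicle and a ratio of 0.550 (0.307 to 0.969). At the high end, besides the region 3.21 kb downstream of the KLK3 start, stood chr19:51520132-51520446 with 36 tags with GSK2879552 against 38 tags with vehicle, a ratio of 0.806 (0.496 to 1.31). The region 10.4 kb upstream of KLK3 followed with 21 tags with GSK2879552 against 23 tags with vehicle, a ratio of 0.777 (0.409 to 1.47). Below 40 tags, 1 pair upstream of KLK4 had more tags with GSK2879552 also after scaling, with 20 tags with GSK2879552 against 16 tags with vehicle and a ratio of 1.06 (0.524 to 2.19).

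**Figure D3:**
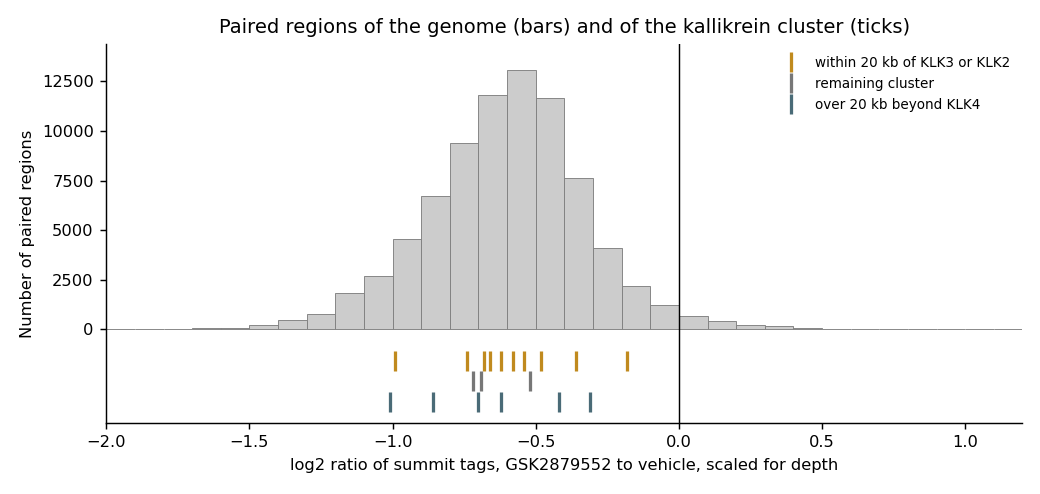
Number of paired regions of the genome (bars, vertical axis), by log2 ratio of summit tags, GSK2879552 to vehicle, scaled for depth (horizontal axis), for pairs that reach 40 tags summed over the lists. Ticks below are the 19 paired regions of the cluster that reach 40 tags, by stretch. The ticks run from -1.01 to -0.18 and lie within the body of the bars.

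Most paired regions of the cluster were narrower with GSK2879552, as over the genome. This held for 18 of 20, against 81.2% of all pairs, with a median width of 195.5 bases with GSK2879552 and 318.5 bases with vehicle. Of the 7 vehicle regions at least 500 bases wide, 3 overlapped 2 GSK2879552 regions each, where 25.5% of such wide vehicle regions over the genome were met by several. One was the region of 802 bases between KLK15 and KLK3, whose highest GSK2879552 part, with 60 tags against 73 tags with vehicle, gave a scaled ratio of 0.699 (0.488 to 0.997). Another, 10.8 kb upstream of KLK15, was 510 bases wide with 33 tags with vehicle, and its GSK2879552 parts had 24 and 17 tags. The last lay 2.27 kb downstream of the KLK4 start, where parts of 30 and 21 tags with GSK2879552 stood against 42 tags with vehicle over 577 bases.

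The deposited values also gave the tags in the 10 kb around each region, since the caller's local background is that number times 0.01. It was raised around KLK3 and KLK2 under both conditions, and also near KLK4. There the 10 kb counts had a median of 728 tags (384 to 881) with GSK2879552 and 739 tags (408 to 972) with vehicle, or 2.68 times the genome-wide level with GSK2879552 and 3.20 times with vehicle. In the distal part the medians were 608 tags (428 to 686) with GSK2879552 and 532 tags (247 to 650) with vehicle, or 2.24 times that level with GSK2879552 and 2.30 times with vehicle. The rest of the cluster had medians of 506.5 tags (431 to 842) with GSK2879552 and 440 tags (319 to 965) with vehicle. Its highest counts, near KLK4, were 3.10 times the genome-wide level with GSK2879552 and 4.18 times with vehicle. No member of either list stood at the genome-wide level, where 62591 of 161535 GSK2879552 regions and 77284 of 191905 vehicle regions of the whole lists did. On chromosome 19 this held for 510 of 4550 GSK2879552 regions and 556 of 5046 vehicle regions, so raised counts are common along this chromosome. The median local background was 6.08 tags per position in the cluster and 5.42 on chromosome 19 with GSK2879552, and 5.47 in the cluster and 4.97 on chromosome 19 with vehicle. At the KLK3 start there were 844 tags in 10 kb with GSK2879552 and 939 tags with vehicle, a scaled ratio of 0.764 (0.696 to 0.840). At the KLK2 start 718 tags with GSK2879552 and 739 tags with vehicle gave 0.826 (0.745 to 0.917).

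Scaled 10 kb counts were lower with GSK2879552 at 10 of 10 pairs around KLK3 and KLK2. The same held at 4 of 4 pairs in the rest of the cluster and 5 of 6 distal pairs, against 76.4% of 66347 pairs over the genome. The ratios ran from 0.738 to 0.841 with a median of 0.802 around KLK3 and KLK2. They ran from 0.755 to 1.02 with a median of 0.898 in the distal part, and the genome had a median of 0.892. In the rest of the cluster they ran from 0.742, at the region with most tags near KLK4, to 0.958. Over the genome the ratio was lower where vehicle counts around a region were higher, so regions of like vehicle counts were set side by side. Vehicle counts are also the denominator of the ratio. Grouping by them therefore lowers the ratio at high counts by itself, to an extent that was not tested. Where vehicle counts were 800 to 1000, the 3 pairs around KLK3 and KLK2 had a median of 0.764 and the genome 0.779. At 600 to 800 the values were 0.803 and 0.816, and the 2 distal pairs had 0.906. At 400 to 600 they were 0.829 around KLK3 and KLK2, 0.888 in the distal part and 0.880 over the genome. Neighbouring stretches of 10 kb overlap and include the tags of the regions themselves, so these pairs are not independent.

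**Figure D4:**
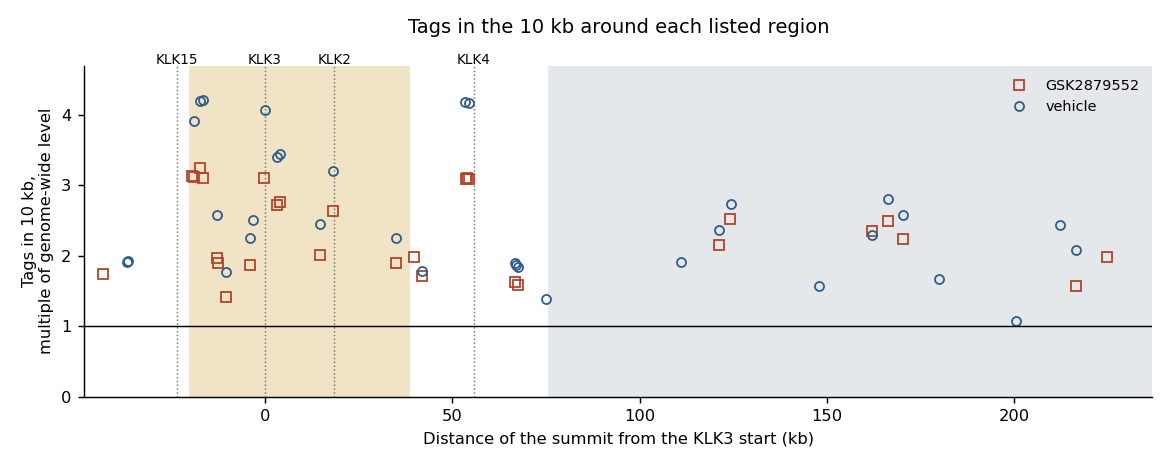
Tags in the 10 kb around each listed region as a multiple of the genome-wide level of its library (vertical axis) against the distance of the summit from the KLK3 start in kb (horizontal axis), for GSK2879552 (squares) and vehicle (circles). Shading and dotted lines mark the stretches and starts as in the map of summit tags. The highest multiples, 3.24 with GSK2879552 and 4.21 with vehicle, lie between KLK15 and KLK3.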

How the data were processed

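The submitters' processing notes name MACS2 2.1.2, BWA 0.7.2 and SAMtools 0.1.18, without roles, and the builds GRCh37 and hg19. Each deposited list, shared by the 2 lanes of a condition, gives per peak a score, a fold ratio, a −log10 p, a −log10 q and a summit offset. Trimming, duplicate removal and shifting of reads to cuts, all not given in the sources used here, may affect tag numbers. The most tags at any summit were 199 with GSK2879552 and 197 with vehicle. That is just under the 200 that 1 tag per position and strand would allow. Corrected for such a limit, the scaled tag ratio was 0.636 over the cluster, 0.644 around KLK3 and KLK2 and 0.635 in the distal part. The fold and −log10 p that the authors deposited were solved for whole summit tags and the local background, and 100% of rows of both lists matched within 0.001. The solution was tested on simulated data. Tags were scaled by the genome-wide backgrounds, whose ratio was 1.18. Total tags per library are unknown.

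Partners overlapped by 1 bp, and pairs had exactly 1 partner each. Members, stretches and motifs were chosen with earlier results of these data known. Gene starts came with the choice of the cluster. No hg19 genome was used, so RefSeq windows of GRCh38.p14 were matched by their distance from the KLK3 start, within 10 bases. Regions named were those at starts, 3 to 6 kb upstream, the 5 with most tags, the 3 lowest and 3 highest ratios and the 3 without a partner per list that ranked highest by −log10 p. Computation used SciPy 1.17.1, pandas 2.3.3, NumPy 2.4.6 and matplotlib 3.10.9 under Python 3.11.15.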

Additional observations from a re-analysis of the deposited data

How the results depend on the processing

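No paired analysis was possible because each condition had 1 library, and for the same reason no replicate could be left out. Of 51 alternative values of shares and tag ratios, 45 stayed within the counting interval of the reported value, and no tag ratio changed direction. This is a weak check. Some intervals are wide, such as 23.4 to 83.3 for the distal vehicle share, and some alternatives kept the same regions. With 94.2% of all pairs of the genome below 1, a change of direction was unlikely beforehand. With a reciprocal overlap of 50%, the share of GSK2879552 regions with a partner was 58.6% over the cluster and 57.1% around KLK3 and KLK2, and that of vehicle regions around KLK3 and KLK2 was 61.5%, since this rule leaves out overlapping regions of unlike width. Under it the distal share was 45.5% of vehicle regions and 71.4% of GSK2879552 regions. The GSK2879552 share was then higher in the distal part than around KLK3 and KLK2, and the vehicle share lower. With regions required to reach 5 on the −log10 q scale, 4 of 4 distal GSK2879552 regions, or 100%, had a partner. With no scaling for depth the tag ratio was 0.779 over the cluster and 0.783 around KLK3 and KLK2. All 19 alternative tag ratios lay below 1. Depth limits single regions, as 12 of 20 pairs had an interval that includes 1.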
